A study of Arabidopsis thaliana with 14 samples.

Results

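A methylated segment between a pair of Arabidopsis thaliana genes, AT1G78630 and AT1G78635, was mapped in embryo and endosperm. The members were the 46 windows of 300 nt, set at steps of 200 nt, that overlap either gene or the 2 kb to each side of it, out of 590886 windows with calls in the genome. The genes had been chosen because windows in their shared flank lost most of their CG methylation in endosperm, so the difference between embryo and endosperm at these windows is given as a description, and nothing is read from the calls made on it. AT1G78630 (emb1473) lies on the forward strand at chr1:29575806-29577880 in TAIR10.1 and is annotated as a ribosomal protein L13 family protein. AT1G78635 lies on the reverse strand at chr1:29579715-29580644 and is annotated as a B3 domain protein. A gap of 1834 nt separates the genes, whose 3′ ends face each other.

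In plants, cytosines are methylated in CG, CHG and CHH sequence (H is any base but G). CG methylation is copied after replication by the methyltransferase MET1 and CHG methylation by CMT3, whereas CHH methylation is set anew by CMT2 or by RNA-directed DNA methylation, in which small RNAs guide the enzyme DRM2. Before fertilization the DNA glycosylase DEMETER removes methylation in the central cell, the female precursor of the endosperm, often at short repeats and transposon remnants near genes. The endosperm nourishes the embryo and inherits more maternal than paternal genomes. Genes named EMB are those whose loss arrests the embryo, and plastid ribosomal protein L13 belongs to the large subunit of the chloroplast ribosome. B3 domains are DNA-binding domains of plant transcription factors.

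DNA methylation was measured by whole-genome bisulfite sequencing in embryo and endosperm at 6 days after pollination, in 14 libraries from 7 crosses. Seeds came from selfed Col-0 (Col below), selfed Ler and selfed Cvi, from Col crossed with Cvi in both directions, and from Ler crossed with Cvi in both directions. Hybrids are written with the female parent first, so that Cvi x Ler had a Cvi mother, and the plots write a selfed cross in the same way (Ler x Ler). Each cross gave 1 library per tissue, so no value has a replicate error, and intervals and p values cover counting error within libraries only.

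Depth limited what could be read in endosperm. Nuclear CG calls, a call being 1 read of a cytosine as methylated or not, summed to between 214040 and 62566453 per library. At the members, the deepest library (the Ler x Cvi embryo) had a median of 152 CG calls per window, whereas the Col x Cvi endosperm had 9, that of the reciprocal cross 6 and that of Ler x Cvi 8. The selfed Col endosperm had no CG window here among the weighted values, which are methylated calls as a percent of all calls. Of CG calls on the chloroplast genome, which should be unmethylated, between 0.0299% and 0.775% were methylated in the libraries that list it.

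The Cvi x Ler embryo stood apart from the other embryos at member windows outside the methylated segment. At chr1:29575201-29575500, inside AT1G78620, it had 38.8% CG methylation (19 of 49 calls, Wilson 95% interval 26.4 to 52.8), whereas the other embryos had between 0% and 2.01%. At the neighbouring window starting at 29575001 it had 32.2% (others at most 4.29%), and at the window starting at 29582201 it had 33.3% (others at most 0.641%). At the windows starting at 29573801 and 29574001 it had 43.75% (7 of 16 calls in each), where selfed Ler had 18.4% and 26.2% and the remaining embryos at most 10%. Whether reads or positions of this library were processed differently was not tested. The main values below are therefore given with and without this cross.

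The sequence of the segment is shown first because it is built of repeats that hold most of the CG sites concerned. The middle window, chr1:29578001-29578300, and the right edge, chr1:29578401-29578700, are both between the genes and are given as RefSeq has them (TAIR10.1, forward strand, 5′ to 3′, CG sites in capitals). The middle window holds 7 CG sites. The right edge also holds 7, with 4 in its first 100 bases, 0 in the next 100 and 3 in the last 100.
Middle window: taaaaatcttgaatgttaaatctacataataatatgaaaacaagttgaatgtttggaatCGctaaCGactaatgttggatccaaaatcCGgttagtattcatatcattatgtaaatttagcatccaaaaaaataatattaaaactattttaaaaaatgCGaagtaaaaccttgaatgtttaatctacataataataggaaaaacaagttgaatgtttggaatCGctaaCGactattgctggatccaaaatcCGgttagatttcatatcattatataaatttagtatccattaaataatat
Right edge: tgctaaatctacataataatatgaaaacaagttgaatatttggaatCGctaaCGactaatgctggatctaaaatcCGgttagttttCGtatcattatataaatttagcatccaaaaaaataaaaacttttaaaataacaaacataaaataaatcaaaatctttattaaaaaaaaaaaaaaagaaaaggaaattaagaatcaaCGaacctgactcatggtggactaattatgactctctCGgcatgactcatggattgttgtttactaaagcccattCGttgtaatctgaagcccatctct

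In the inner 900 nt of the segment, chr1:29577701-29578600, a search for words of at least 12 bases that contain a CG and occur 4 times or more left 2 words at their greatest length. The first was tttggaatCGctaaCGacta (20 bases) and the second aaaatcCGgttag (13 bases). Copies of the first word began at 29577831, 29578052, 29578215 and 29578439, so that successive copies were 221, 163 and 224 nt apart, and the second word followed each of them. Together the copies held 12 of the 18 CG sites of the inner 900 nt. On both strands of the 5 chromosomes the first word occurred 9 times and the second 78 times, and windows holding them made up 0.00218% and 0.0149% of all windows. The inner 900 nt had 23.3% G and C, against 35.9% for chromosome 1, and 2 CG sites per 100 nt, against 2.29. By window, the segment had 24.7% to 30.3% G and C. Windows of selfed Ler called higher in embryo by the rule given below had a median of 28.7%, against 34.7% in all windows tested. Low G and C content was thus common to such windows.

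Loss of CG methylation in endosperm formed a block of 5 consecutive windows, chr1:29577601-29578700, in which the mean loss over crosses was between 55 and 65.2 percentage points. The block was defined as the run of windows that lost at least 35 points on average, over at least 2 crosses with at least 15 calls in both libraries. The mean loss was largest, at 65.2 points over 4 crosses, in the window chr1:29577801-29578100, called the peak window below. It takes in the end of AT1G78630. The window at the left limit was measured in 2 crosses and lost more than the peak window in both. The losses were 68.1 against 67.8 points in selfed Ler and 52.9 against 38.1 in Cvi x Ler. Just inside the limits of the block, the left window lost 60.5 points and the right edge 56.2. Just outside, the next window on the right lost 1.01 points. The next window on the left had too few endosperm calls for a loss, and its CG level was between 0% and 1.67% in the 4 embryos with at least 15 calls. Without Cvi x Ler, the left window was measured in selfed Ler alone (68.1 points), so that the run by the same definition had 4 windows, chr1:29577801-29578700.

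The outer windows share 100 nt with unmethylated neighbours, so the methylated CG sites of the block lie in the inner 900 nt. CG sites of that stretch run from 29577742 to 29578487. Values are sums over windows, so which of these sites were methylated was not read. The block overlapped the last 280 nt of AT1G78630, annotated as 3′ UTR, and stopped 1014 nt short of AT1G78635. For its inner 900 nt the overlap was 180 nt and the distance 1114 nt. The 2 genes therefore share the block in their 3′ flanks.

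**Figure D1:**
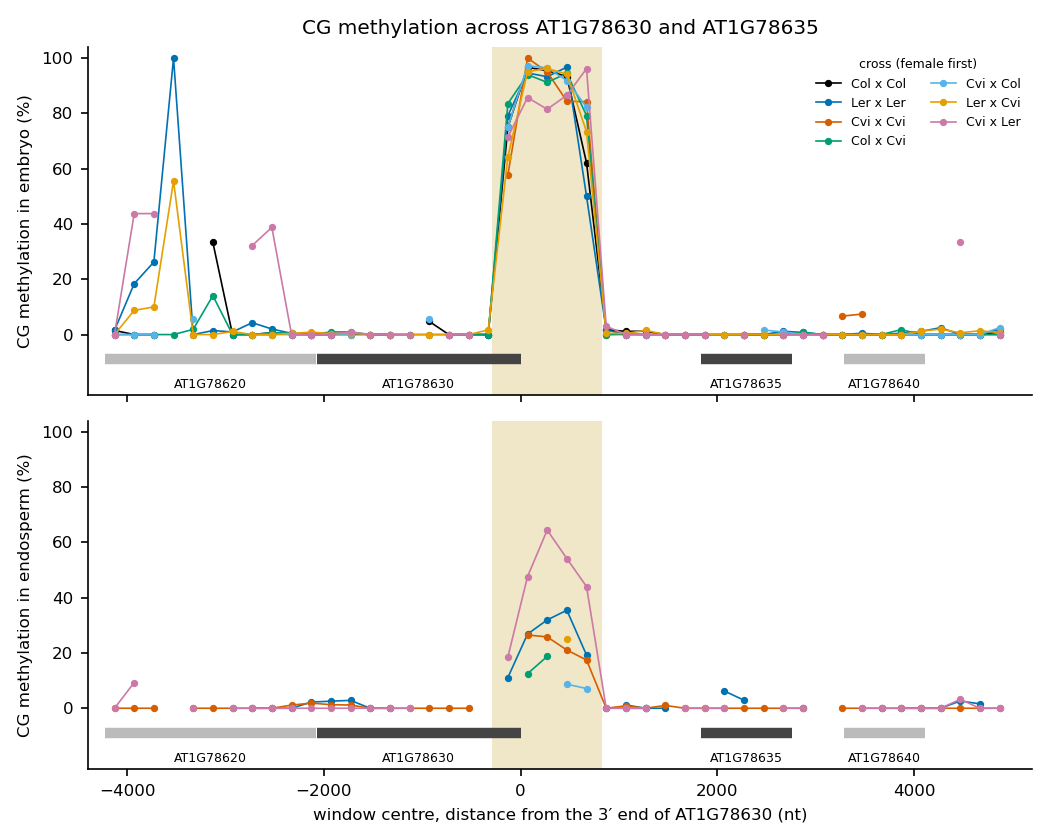
Percent of CG calls methylated in each member window with at least 15 calls, by distance of the window centre from the 3′ end of AT1G78630 (nt), for embryo (top) and endosperm (bottom), 1 line per cross, broken where a window was missing. Bars mark the genes and shading the 5 windows of the segment, in which each of the 7 embryos had at least 50.0%, while the windows on either side had at most 3.03% in embryo.

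Embryos were close to one another in the inner windows of the segment. In the peak window CG methylation was 85.7% in the lowest embryo (Cvi x Ler), 95.1% at the median and 100% in the highest (selfed Cvi). The middle window, whose sequence is shown above, ranged from 81.5% to 96.5%. The outer windows were lower and more variable, from 57.8% (selfed Cvi) to 83.5% on the left and from 50.0% (selfed Ler) to 96.2% on the right.

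Averaged over the segment windows, CG methylation was between 82.8% and 88.6% in the 7 embryos and between 12.3% and 45.7% in 6 endosperms. The windows were chosen for this loss, so the gap between the tissues is a description. Over windows with calls in both tissues, selfed Ler had 82.8% in embryo and 24.9% in endosperm (304 endosperm calls), and selfed Cvi had 84.3% and 19.6% (398 calls). These endosperms were the deepest of the selfed crosses. Col x Cvi had 90.8% in embryo and 20.3% in endosperm (44 calls), and its reciprocal had 86.6% and 12.3% (63 calls). Ler x Cvi had 82.0% and 17.9% (37 calls). These shallow hybrids were each read over 4 windows.

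In Cvi x Ler, whose embryo stood apart outside the segment, the endosperm had 45.7% (321 calls) against 84.3% in embryo. The mean loss over the 6 crosses was 61.7 ± 12.7 points (SD, n = 6 crosses), and without Cvi x Ler it was 66.3 ± 6.33 points (SD, n = 5). Relative to the embryo, between 69.9% (selfed Ler) and 85.8% (Cvi x Col) of CG methylation was missing in these 5 endosperms, and 45.7% in that of Cvi x Ler. For selfed Col only the authors' window means, an unweighted mean over cytosines, covered the segment in endosperm, with 30.6% over 3 windows against 94.8% in embryo. For this library the window means list 311463 CG windows and the weighted values 8430, so the minimum of 5 reads per cytosine does not appear to hold for them.

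**Figure D2:**
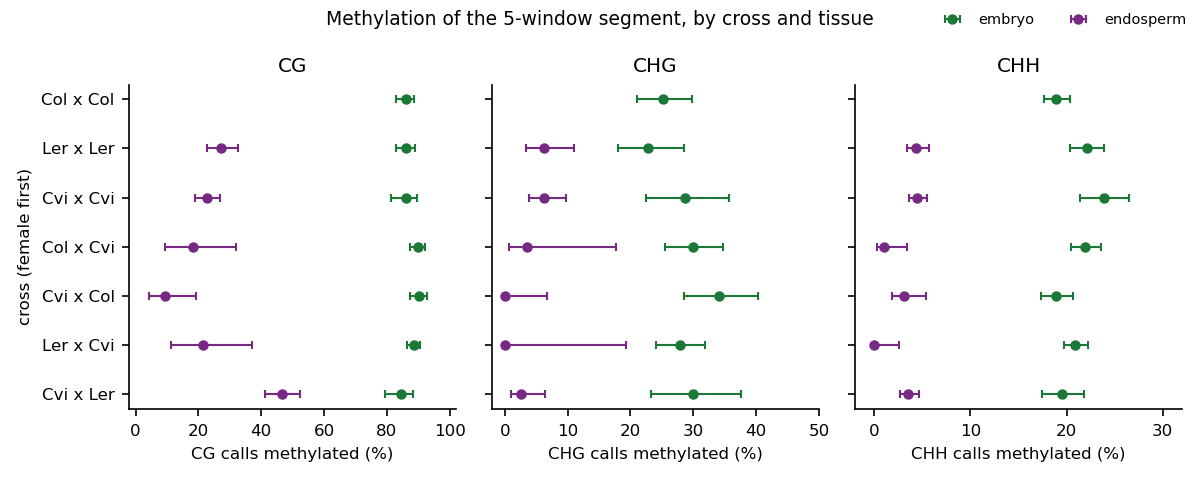
Percent of calls methylated over the 5 segment windows in CG, CHG and CHH (%), for each cross, in embryo and endosperm, with Wilson 95% intervals of the summed calls. In selfed Ler CG went from 86.2% to 27.3% and in Cvi x Ler from 84.5% to 46.7%. The CG and CHH intervals of the tissues did not overlap in the 6 crosses with endosperm calls. Overlapping windows count some calls more than once in these sums, so the intervals are too narrow. The segment was defined by its CG loss, so this is a description.

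A window was called between a pair of libraries when Fisher's exact test, adjusted by Benjamini-Hochberg over all windows, gave a p under 0.01 and the difference reached 35 points in CG or CHG, or 10 points in CHH. In CG, windows higher in embryo numbered 4 of 23 tested members in selfed Ler (5.8% of all windows tested were called in this direction) and 4 of 21 in selfed Cvi (7.57%). For the Col hybrids the counts were 2 of 6 with a Col mother (10.8%) and 2 of 4 with a Cvi mother (7.97%). For the Ler hybrids the counts were 1 of 1 with a Ler mother (15.1%) and 4 of 25 with a Cvi mother (7.69%). Nothing is read from these counts, because the windows were chosen on this contrast. Members called higher in endosperm numbered 0 in each of these crosses, in the same order against 0.25%, 0.0905%, 0.212%, 0.131%, 0.247% and 2.76% of all windows. The 1 called member outside the segment was the window at 29575201, where the Cvi x Ler embryo stood apart.

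Non-CG methylation lay in the same windows and, in the 6 crosses with weighted endosperm values, was lower in endosperm. In CHG the segment means were 25.8% to 36.3% in the 7 embryos, with a median of 29.3%, and 0% to 5.62% in 6 endosperms. In CHH they were 18.6% to 26.7% in embryos, with a median of 20.9%, and 0% to 5.27% in endosperms. Both contexts were highest in the middle window, with embryo medians of 57.1% in CHG and 31.3% in CHH. The windows on either side of the segment had at most 0.997% CHH in any embryo. Selfed Ler lost 20.3 points of CHG and 18.3 of CHH, selfed Cvi 30.0 and 21.4, and Cvi x Ler 22.1 and 15.0. For selfed Col, the window means gave 25.1% CHG in embryo and 16.7% in endosperm over 3 windows, 2 of them lower in endosperm. Its CHH was 22.4% and 3.55% over 5 windows, 4 of them lower in endosperm.

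In CHG the embryo was called higher at 0 of 25 tested members in selfed Ler (1.85% of all windows tested) and at 1 of 21 in selfed Cvi (1.94%). The count was 0 of 4 for Col x Cvi (1.43%), 1 of 5 for its reciprocal (1.78%) and 0 of 34 for Cvi x Ler (4.07%). In CHH the counts were 3 of 28 in selfed Ler (2.03%), 3 of 30 in selfed Cvi (3.04%), 2 of 4 for Col x Cvi (2.21%) and 3 of 9 for its reciprocal (3.05%). For the Ler hybrids they were 2 of 2 with a Ler mother (2.61%) and 3 of 39 with a Cvi mother (2.5%). The CHG and CHH calls all lay in the segment, and nothing is read from these counts either.

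**Figure D3:**
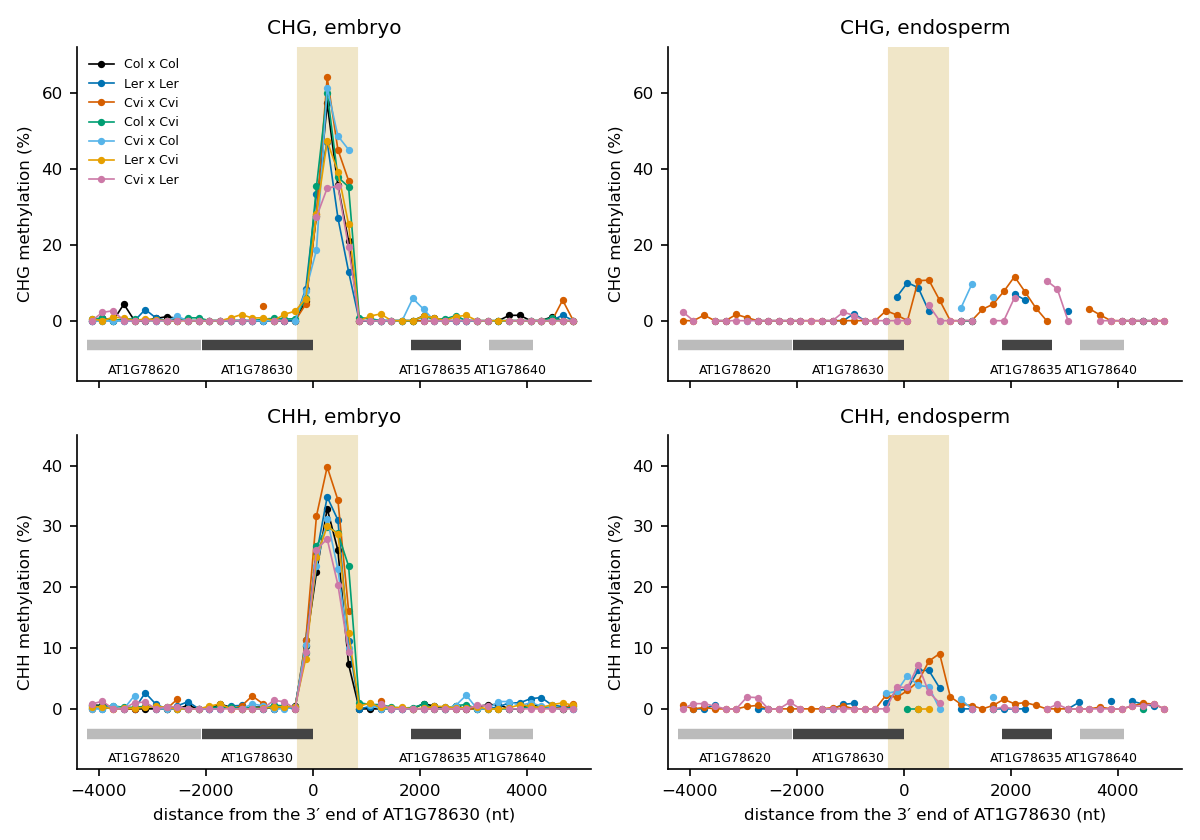
CHG (top, windows with at least 15 calls) and CHH (bottom, at least 50 calls) methylation in percent, by distance of the window centre from the 3′ end of AT1G78630 (nt), in embryo (left) and endosperm (right), 1 line per cross. Shading marks the segment, where CHG reached 64.0% and CHH 39.8%, both in the selfed Cvi embryo.

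The median embryo CHH methylation of the segment windows was above the upper quartile of windows called for CG loss. Among CG windows called higher in embryo in selfed Ler, embryo CHH had a median of 7.34% and quartiles of 3.34% and 13.6% (12655 windows), against a median of 25.4% in the 5 segment windows. In selfed Cvi the median was 9.47% with quartiles of 3.94% and 17.6% (13089 windows), against 31.7%. The outer windows of the segment were below these upper quartiles, at 11.4% and 11.1% in selfed Ler and 11.3% and 16.2% in selfed Cvi. CHG showed no such excess, at 27.1% in the segment against 35.2% in selfed Ler and 36.8% against 45% in selfed Cvi. This comparison is a description, since the segment was chosen on its CG loss and its CHH was measured in the same libraries.

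Called windows formed a run of 4 here in selfed Ler (chr1:29577601-29578500) and another in selfed Cvi (chr1:29577801-29578700). The median run in the genome was 1 window in both. A window that was not tested ended a run, so low depth can shorten runs elsewhere. Tested were 220167 windows in selfed Ler and 186642 in selfed Cvi. Runs at least as long made up 5.01% of 7918 runs in selfed Ler and 4.29% of 8890 in selfed Cvi. The windows were chosen for their loss, so the length of the run is a description.

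Endosperms were next compared with one another. The members were chosen for low CG levels in endosperm, which bears on how far these libraries could differ in the segment. The selfed Ler and selfed Cvi endosperms had 26.8% (82 calls) and 26.5% (83 calls) in the peak window. In the 4 segment windows tested, the largest difference was 14.4 points (35.4% in Ler, 21.1% in Cvi, Fisher's exact test, adjusted p = 0.214). Over all members 0 of 23 were called in CG (8.03% of all windows), with 1 at an unadjusted p under 0.05 by Fisher's exact test. In CHG 0 of 24 were called (0.494% of all windows) and in CHH 0 of 28 (0.7%), with 0 at an unadjusted p under 0.05 in both.

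The Cvi x Ler endosperm kept the most CG methylation. It had 64.4% in the middle window (45 calls), whereas selfed Ler endosperm had 31.9% (72 calls) and selfed Cvi endosperm 25.8% (124 calls). These comparisons were chosen after the values were seen. Against selfed Cvi the difference in that window was 38.6 points (Fisher's exact test, adjusted p = 0.000379), and it was the 1 member called of 33 tested (3.07% of all windows). At the window chr1:29578201-29578500 it was 33.1 points (54.1% against 21.1%, exact test, adjusted p = 3.56e-05), which passed the test but fell short of 35 points.

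Against selfed Ler 0 of 22 were called in CG (3.45% of all windows), with 4 at an unadjusted p under 0.05, all in the segment. The smallest adjusted p there was 0.0223 by Fisher's exact test, in the middle window. Cvi x Ler was higher than selfed Ler in each of the 5 segment windows, by between 7.41 points on the left and 32.5 points in the middle. In the non-CG contexts its segment means were no higher, at 5.24% CHG and 3.60% CHH, against 5.49% and 4.48% in selfed Ler and 5.62% and 5.27% in selfed Cvi.

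**Figure D4:**
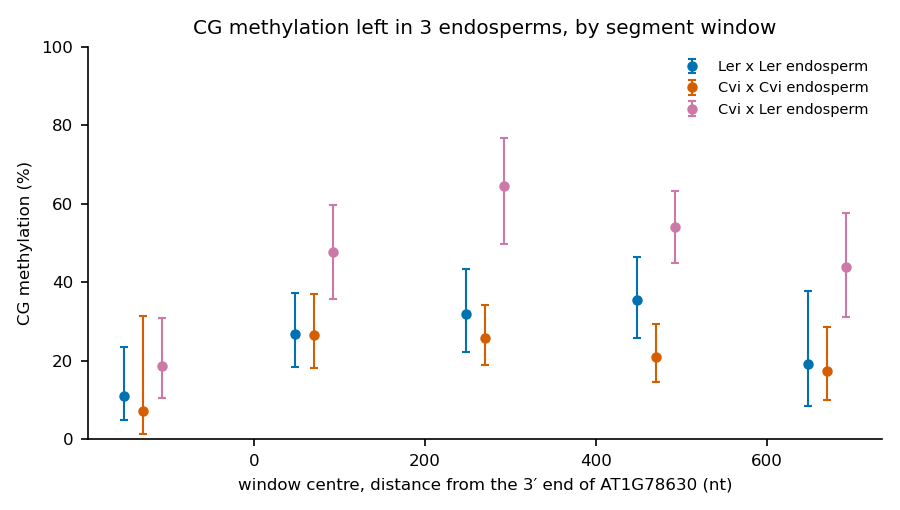
CG methylation (%) in the 5 segment windows of the selfed Ler, selfed Cvi and Cvi x Ler endosperms, by distance of the window centre from the 3′ end of AT1G78630 (nt, points shifted sideways for visibility), with Wilson 95% intervals. Cvi x Ler reached 64.4% in the middle window, where the others had 31.9% and 25.8%.

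The endosperm with the parents exchanged, Ler x Cvi, could be compared with it in 1 CG window, chr1:29578201-29578500. It had 25% (16 calls) against 54.1% (109 calls), a difference of 29.1 points that did not pass (Fisher's exact test, adjusted p = 0.173, unadjusted p = 0.0346). The member count was thus 0 of 1 in CG (3.9% of all windows) and 0 of 2 in CHH (3.13%), with 1 at an unadjusted p under 0.05 in each context.

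Strains were then compared among the selfed embryos. The members were chosen for losing most CG methylation in endosperm across crosses, which requires high CG levels in embryo. This bears on how far the embryos could differ in the segment. The segment means were 84.5% in Col, 82.8% in Ler and 84.3% in Cvi, and the peak window had 96.6%, 94.6% and 100%. Members called in CG numbered 0 of 41 between Col and Ler (8.28% of all windows), 0 of 22 between Col and Cvi (9.83%) and 0 of 22 between Ler and Cvi (9.7%), with 4, 3 and 4 at an unadjusted p under 0.05 by Fisher's exact test. The nearest to a call in the segment was the right edge, at 50.0% in Ler (72 calls), 62.1% in Col (124 calls) and 84.2% in Cvi (38 calls). Between Ler and Cvi this was 34.2 points (Fisher's exact test, adjusted p = 0.00414), just under the 35 points required.

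In CHG 0 of 45, 0 of 22 and 0 of 22 members were called between the strains, in the same order (1.26%, 1.94% and 1.7% of all windows), and 0 had an unadjusted p under 0.05. In CHH 0 of 46, 0 of 30 and 0 of 30 were called (2.22%, 2.68% and 2.22%), with 1, 2 and 1 at an unadjusted p under 0.05. The selfed Cvi embryo had the highest CHH in the middle window, 39.8% against 34.8% in Ler and 32.9% in Col, differences that did not pass (Fisher's exact test, adjusted p = 1 and 0.782).

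Between the embryos of Col x Cvi and its reciprocal, 0 of 31 members were called in CG (0.571% of all windows) and 0 of 40 in CHG (0.0498%), with 0 at an unadjusted p under 0.05 in both. In CHH 1 of 41 was called (1.09%). This was the right edge, at 23.5% (311 calls) with a Col mother and 9.94% (362 calls) with a Cvi mother (Fisher's exact test, adjusted p = 0.000385). The same window had 79.2% and 82.2% CG methylation in these embryos. As among the selfed embryos, the choice of members bears on how far these libraries could differ in CG in the segment.

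The body of AT1G78630 was almost free of methylation up to the segment. Over the 8 windows from its start to the segment, at most 0.671% of CG calls were methylated in any embryo. In the selfed Ler embryo the count was 0 of 642, which allows up to 0.467% (3 counts of the total). AT1G78635 was also nearly unmethylated in CG, at 0% to 0.930% over its 6 windows in the 7 embryos. Its endosperms had 2.27% (2 of 88 calls) in selfed Ler, 0 of 287 in selfed Cvi, which allows up to 1.05%, and 0 of 224 in Cvi x Ler, which allows up to 1.34%. Overlapping windows count some calls more than once, so the limits given for these genes are too low.

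In CHG, low levels were found over AT1G78635 in endosperm. Selfed Cvi had 6.26% in endosperm (30 of 479 calls, Wilson 95% interval 4.42 to 8.80) and 0 of 125 in embryo, which allows up to 2.4%. Selfed Ler had 5.45% in endosperm (6 of 110) and 0 of 467 in embryo, and Cvi x Ler had 3.73% (6 of 161) and 0 of 153. The signal thus ran opposite to that of the segment, although no window of the gene was called and overlapping windows count some calls more than once. CHH over this gene was at most 2.86% in any library.

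On the other flank, within AT1G78620, an integral membrane protein gene of unknown function, CG methylation was found in some embryos and not in others. At chr1:29574201-29574500, a window of coding exon and intron chosen after its values were seen, 15 of 15 calls were methylated in the selfed Ler embryo and 10 of 18 in the Ler x Cvi embryo. The selfed Col embryo had 0 of 7, and the embryos of Col x Cvi and its reciprocal had 0 of 15 and 0 of 7. In endosperm the selfed Ler library had 6 of 7, Cvi x Ler 2 of 5 and selfed Cvi 0 of 11. The next window to the right but one, at 29574601, had 33.3% in the selfed Col embryo (10 of 30 calls) and 1.45% in that of selfed Ler. The window at 29574201 was too shallow for the main rule. With at least 5 calls it was called between selfed Col and selfed Ler embryos (Fisher's exact test, adjusted p = 7.64e-05).

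Windows within 10 kb of the genes were read in the same way. Of 126 windows in this stretch, 56 were tested in selfed Ler and 44 in selfed Cvi, and 6 were called higher in embryo in each, 4 of them in the segment. Outside it the counts were 2 of 51 in selfed Ler (5.8% of all windows) and 2 of 40 in selfed Cvi (7.57%). Those in selfed Ler were the window at 29570401, in MSL6, a mechanosensitive channel gene, and the window at 29589401, beyond GGH1, a gamma-glutamyl hydrolase gene. In selfed Cvi they were the windows at 29590001 and 29590201, also beyond GGH1. Cvi x Col had calls at 29589401 and 29590201, which were 2 of 6 tested outside the segment (7.97% of all windows). Col x Cvi had 0 of 4 (10.8%) and Cvi x Ler 1 of 58 (7.69%). The bodies of NADK3 (an NAD(H) kinase), LZF1 (a light-regulated zinc finger protein), AT1G78640 (another B3 domain protein), POLD3 (a DNA polymerase subunit) and GGH1 held 0 called windows in any cross. In this order, the windows tested numbered 8, 6, 2, 5 and 4 in selfed Ler and 7, 5, 4, 4 and 1 in selfed Cvi. In Cvi x Ler they numbered 11, 3, 0, 8 and 4 (7.69% of all windows were called). Each remaining cross had at most 1 tested window per gene, too few to read. AT1G78620 held 1 called window, of 8 tested in Cvi x Ler.

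Sequences like the segment were present elsewhere in the genome. A blastn search with the inner 900 nt gave 276 matches of 100 nt or more, on 5 chromosomes, which merged into 37 places. The longest was 826 nt at 69% identity, and the highest identity of any match was 90.1%. Matches covered 93.2% of the query. Whether the places belong to 1 family of elements was not tested, nor was the treatment of reads that fit several of them.

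CG windows at these places were called higher in embryo in larger shares than windows in general. In selfed Ler 69 windows were called, 68.3% of those tested against 5.8% of all windows, and in selfed Cvi 57 of 83, 68.7% against 7.57%. Among windows with at least 80% CG in embryo, the shares were 82.2% of 73 against 28.6% of 35805 in selfed Ler, and 90% of 50 against 41.9% of 26386 in selfed Cvi. Median CG levels at these places were 88.8% in embryo and 35.3% in endosperm in selfed Ler, and 84.8% and 26.7% in selfed Cvi. Neighbouring windows overlap and the places are related in sequence, so these windows are not independent of each other. The search began from a segment chosen for this loss, so the shares are a description.

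The shallow hybrids had few such windows. Called were 6 of 7 for Col x Cvi (10.8% of all windows), 22 of 29 for its reciprocal (7.97%) and 8 of 11 for Ler x Cvi (15.1%). For the Cvi x Ler cross 18 of 107 were called higher in embryo (7.69% of all windows) and 10 higher in endosperm (2.76%). The median embryo level there was 57.9% in this cross, against 84.8% to 92.1% in the others, and the median endosperm level was 51.2%, against 20% to 35.3%. The part of the embryo that stood apart in this lower share was not tested.

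**Figure D5:**
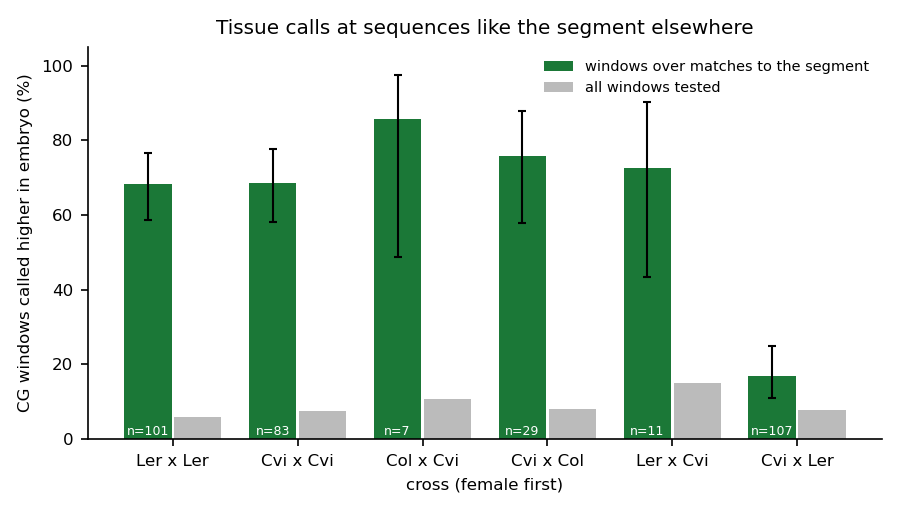
Percent of CG windows called higher in embryo in each cross, for windows overlapping sequence matches to the segment elsewhere in the genome (with Wilson 95% intervals and the number of windows tested) and for all windows tested. Matching windows were called in 68.3% of cases in selfed Ler and 16.8% in Cvi x Ler, where all windows gave 5.8% and 7.69%.

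The exact words of the repeat were also followed outside the segment. Of tested windows holding tttggaatCGctaaCGacta, 5 of 6 were called higher in embryo in selfed Ler and 6 of 6 in selfed Cvi. For aaaatcCGgttag the counts were 38 of 59 and 42 of 50. Over all windows tested, the shares called were 5.8% in selfed Ler and 7.57% in selfed Cvi. Among windows with at least 80% CG in embryo they were 28.6% and 41.9%. The words were taken from a segment chosen for this loss, and these counts are a description.

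Windows with CG levels most like those of the peak window were ranked by the mean absolute difference over the 11 libraries in which it had at least 15 calls, among 6128 windows with such depth. The genes nearest to the closest ones were AT4G05835 (3.94 points), AT5G26617, annotated as reverse transcriptase-like (4.59), AT4G03700 (4.64), AT5G46370, a potassium channel gene (5.06), and AT1G76878 (5.15). The window overlaps AT4G03700, and in the other cases it lies 396 to 870 nt from the gene.

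Other genes of the plastid 50S ribosomal subunit were read from a list of 22. A window called higher in embryo, in the gene or within 2 kb, was found for 5 of 22 tested in selfed Ler and 5 of 21 in selfed Cvi, while among all protein-coding genes the shares were 26.4% and 26.3%. RPL12-A (AT3G27830), which encodes a subunit of the ribosomal stalk, was the 1 gene found in both, with 2 windows in selfed Ler and 5 in selfed Cvi.

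The tissue labels were checked at FWA (AT4G25530), an imprinted gene known to be methylated in embryo and demethylated in endosperm. Over 16 windows of the gene and its 2 kb flanks, mean CG methylation was 17.1% in embryo and 8.71% in endosperm in selfed Ler. Of these, 1 was called higher in embryo (5.8% of all windows), a count near that share from which nothing is read. In Cvi x Ler, whose embryo stood apart at the members, the means were 25.7% and 9.45% over 18 windows, with 3 called (7.69% of all windows). In selfed Cvi only 4 windows could be read, at 1.61% and 0%, which is too little methylation for a check. The same holds for Col x Cvi (1 window) and Cvi x Col (2 windows), with 0% in both tissues.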

How the data were processed

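The authors made 1 bisulfite library for each cross and tissue. Per the labels and the study's methods, they screened reads with FastQC and aligned them with Bismark (version not given in the sources used here). Reads of selfed Col and Cvi were aligned to TAIR10, Cvi also to a copy carrying Cvi substitutions. Selfed Ler reads were aligned to a Ler genome whose positions were converted to TAIR10. Hybrid reads were aligned first to TAIR10 (Col with Cvi) or to the Ler genome (Ler with Cvi). Those left unaligned were tried on the Cvi copy. Redundant reads were removed, and cytosines with at least 5 reads were grouped by window.

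The deposited weighted files hold, per window and context, the count of unmethylated and the count of methylated calls, from which each percent here was computed. The deposited window mean files hold a percent that is an unweighted mean over cytosines, and served as an alternative. Both kinds list the same windows in every library but the selfed Col endosperm. Window positions fitted the chromosome lengths of TAIR10.1, whose RefSeq annotation gave the genes and sequences.

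Windows were compared by a two-sided Fisher's exact test with Benjamini-Hochberg adjustment over all windows with at least 15 (CG, CHG) or 50 (CHH) calls in both libraries. The difference and p thresholds are those of the study's methods, whose further requirement of cytosines read in both libraries could not be applied to window sums. A p value describes 2 libraries, not a strain or tissue, and neighbouring cytosines on a read are not independent. Wilson 95% intervals, and the upper limit for a count of 0 (3 counts), cover counting error only. Totals over several windows count calls in overlaps more than once, which makes their intervals and limits too narrow. The procedure was tested on simulated windows.

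Members and lists were chosen with earlier results of these data known. Genes named were the members, the genes within 10 kb, the 5 genes nearest to windows most like the peak window, and plastid 50S genes called in both selfed Ler and selfed Cvi. The repeat words, the matches elsewhere and the comparisons of Cvi x Ler with selfed endosperms were chosen after seeing the data. Alternatives changed the call minimum, thresholds, file, windows and crosses. Python 3.11.15, numpy 2.4.6, pandas 2.3.3, scipy 1.17.1, numba 0.67.0, matplotlib 3.10.9 and BLAST+ 2.17.0 (blastn, e-value 1e-05, low-complexity filter off) were used.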

Additional observations from a re-analysis of the deposited data

How the results depend on the processing

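No paired analysis was possible because each group has 1 library, and no replicate could be left out. The segment kept its 5 windows at a threshold of 20 points, with at least 5 calls and with the window mean files. It had 4 windows, from 29577801 to 29578700, without Cvi x Ler and also with selfed Ler and selfed Cvi alone, because the left window then had calls enough in selfed Ler only. With the window mean files the largest mean loss was in the left window, at 29577601, rather than in the peak window. Of the alternative values 76 stayed within their error or within 1.5 times the main count, 17 moved further and 0 reversed. The genes without flanks left 18 windows. With at least 30 calls (100 in CHH), tissue calls fell from 17 to 10 in CG, from 2 to 0 in CHG and from 16 to 9 in CHH, over fewer windows tested. With at least 5 calls there was 1 tissue call in CHG, 1 strain call in CG and 3 CG calls between selfed Ler and selfed Cvi endosperms, the last 4 at AT1G78620. At 25 points and adjusted p 0.05 there were 5 tissue calls in CHG and 3 strain calls in CG, 1 of them at the right edge of the segment. Over every second window, which do not overlap, the CHH loss was 14.9 points in selfed Ler, 17.3 in selfed Cvi, 16.9 for Ler x Cvi and 11.6 for its reciprocal. With the window mean files it was 20.5 points in selfed Ler and 19.02 in Ler x Cvi. In gene bodies alone 0 of 22 plastid ribosomal genes were called in selfed Ler (7.71% of all protein-coding genes) and 1 of 19 in selfed Cvi (8.95%). The cause of these moves was not tested. Matches of at least 75% identity, an alternative chosen after seeing the data, gave 71.1% called in selfed Ler and 64.7% in selfed Cvi. Depth limits the 3 shallow hybrid endosperms most, with 37 to 63 CG calls over the segment.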
